A study of Mus musculus with 2 samples.

Results

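The cytoplasmic ribosomal protein genes were taken by symbol: Rpl or Rps followed by a digit, together with Rplp0, Rplp1, Rplp2 and Rpsa, with rows named -ps and the Rps6k kinases left out. The rule found 87 of the 27998 genes with an Ensembl identifier. Of these, 77 are core subunit genes and 10 carry paralogue, -like or binding-protein names. GENCODE lists Rpl6l as a processed pseudogene, and Rps19bp1 encodes a protein that binds Rps19 and is no subunit. A further 16 rows named -ps are not members.

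A cytoplasmic ribosome has a large subunit, which joins amino acids at the peptidyl transferase centre and releases the chain through an exit tunnel, and a small subunit, which reads the messenger RNA. Most ribosomal proteins are present once in each ribosome and are needed in equal number, and their messenger RNAs are among the most abundant in growing and dividing cells. Many of these messenger RNAs begin with a 5′ terminal oligopyrimidine (TOP) tract, a run of C and T that couples their translation to the mTOR pathway.

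The study made 1 droplet library from Gmnc-/- mice and 1 from wild-type littermates, all C57BL/6J at postnatal day 0. Each library pooled dorsal and lateral cortex with hippocampus from 4 animals, and the Gmnc-/- animals came from 2 litters. Gmnc is a nuclear regulator at the head of the programme of multiciliated cells, and the series title asks about Cajal-Retzius cells and cortical shape. The labels give neither the structure of the Gmnc allele nor a mark that ties a cell to its animal. With 1 library per genotype, every difference below compares these 2 libraries without a replicate check, and no p-value is given.

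The Gmnc-/- library held 27663 barcodes and the wild-type library 13033, with 85 barcode sequences present in both. After filtering, 20131 Gmnc-/- cells and 10501 wild-type cells remained, with a median of 4430 and 5997 unique molecular identifiers (UMIs, each one counted RNA molecule). Called doublets were 23.1% of the Gmnc-/- cells and 3.99% of the wild-type cells, against 22.1% and 10.4% expected from the barcode numbers. Mitochondrially encoded genes made up 1.27% of the UMIs in the Gmnc-/- library and 3.12% in the wild-type library. Gmnc itself gave 76 UMIs in the Gmnc-/- library and 66 in the wild-type library, which checks nothing where the counted 3′ end lies outside the deleted part. Foxj1, which acts downstream of Gmnc in multiciliated cells, stood at 3.35 CPM (the count scaled to 1e6 UMIs) in the Gmnc-/- library and 24.2 CPM in the wild-type library. Cells were grouped into classes by marker genes, and 12 classes had 50 or more cells in each library.

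The transcript starts of 8 members are shown first, because they let runs of C and T near the start be seen at both ends of the ratio between the libraries. Such a run need not begin at the first transcribed base, so it is not shown to be a TOP tract. They are 4 members from the lowest and 4 from the highest end of the ratio that have a RefSeq promoter entry. Each line gives 30 bases of GRCm38.p6, 10 before the annotated start and 20 from it on, read 5′ to 3′ on the gene's strand. Capitals mark the longest run of a C followed by at least 4 C or T whose first base lies within 10 bases of the start.
Rpl35 (chr2:39005112-39005141, minus strand): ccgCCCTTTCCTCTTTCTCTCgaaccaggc
Rpl9 (chr5:65391412-65391441, minus strand): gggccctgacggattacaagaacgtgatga
Rpl22l1 (chr3:28805498-28805527, plus strand): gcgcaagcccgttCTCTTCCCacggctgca
Rpl15 (chr14:18270967-18270996, minus strand): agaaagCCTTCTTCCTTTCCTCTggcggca
Rplp2 (chr7:141447641-141447670, plus strand): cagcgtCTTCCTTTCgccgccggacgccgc
Rpl13a (chr7:45128726-45128755, minus strand): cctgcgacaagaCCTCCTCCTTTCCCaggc
Rpl31 (chr1:39367841-39367870, plus strand): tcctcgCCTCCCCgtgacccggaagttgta
Rps15 (chr10:80292421-80292450, plus strand): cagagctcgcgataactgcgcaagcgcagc

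At the low end of the ratio Rpl35 has such a run of 18 bases, Rpl15 one of 17 and Rpl22l1 one of 8. At the high end Rpl13a has one of 14 bases, Rplp2 one of 9 and Rpl31 one of 7. One member at each end, Rpl9 and Rps15, has no such run in the window, which says only that these letters are not within it. Of the 66 members in the RefSeq table, 40 (60.6%) had such a run in the window on the gene's strand, against 9007 of 27025 genes (33.3%). The other 21 members have no entry there.

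Ribosomal protein genes supplied 11.1% of all UMIs in the Gmnc-/- library and 13.01% in the wild-type library. The ratio of the shares, Gmnc-/- over wild-type, was 0.852 (0.852 to 0.853, a 95% interval that covers counting error only, as do all intervals here). The share varied far more between cell classes than between libraries. It was highest in meningeal fibroblast-like cells, at 19.9% in the Gmnc-/- library and 19.8% in the wild-type library. Macrophage-like cells had 19.0% and 19.1% in the same order of libraries, microglia-like cells 17.1% and 18.5%, and endothelial-like cells 16.8% and 16.4%. These 4 classes lay above the other 8 in both libraries.

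Intermediate progenitor-like and astroglia-like cells lay above the excitatory neuron-like cells in both libraries. Intermediate progenitor-like cells, the basal progenitors of cortical excitatory neurons, had 12.8% in the Gmnc-/- library and 15.1% in the wild-type library. Astroglia-like cells, which here include apical progenitors but also a cluster led by Aqp4, had 11.1% in the Gmnc-/- library against 13.1% in the wild-type library. Oligodendrocyte lineage-like cells had 12.01% and 13.5% in the Gmnc-/- and wild-type libraries, and interneuron-like cells 11.3% and 12.6%. The choroid plexus-like class had 9.86% in the Gmnc-/- library and 12.8% in the wild-type library. It is 1 cluster, whose leading genes mix Ttr, Folr1 and Htr2c with Wnt8b, Rspo2, Rspo3 and Lmx1a, and its marker score was 2.39 for choroid plexus and 1.97 for astroglia. The lowest neural shares were those of excitatory neuron-like cells, at 8.90% in the Gmnc-/- library and 9.73% in the wild-type library, and of striatal-like cells, at 9.42% and 9.39%. Erythroid-like cells, whose RNA is mostly globin, stood at the bottom with 4.68% in the Gmnc-/- library and 4.55% in the wild-type library. The astroglia-like share was 1.25 times the excitatory neuron-like share within the Gmnc-/- library and 1.34 times within the wild-type library.

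**Figure D1:**
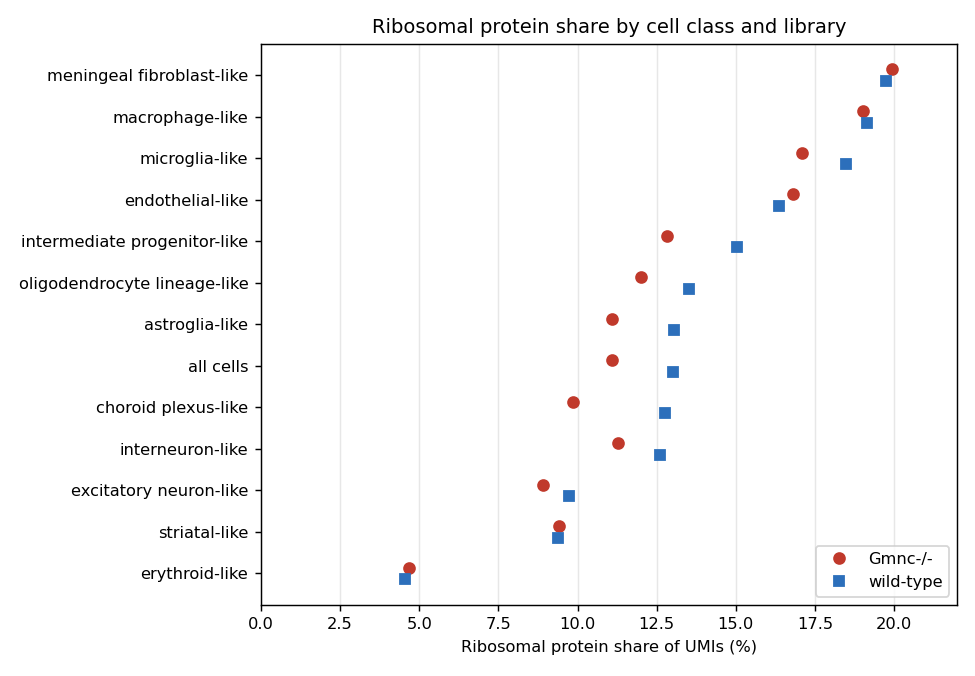
Ribosomal protein share of UMIs (%, x axis) for all cells and for the 12 classes (rows, ordered by the wild-type share), with the Gmnc-/- library as red circles and the wild-type library as blue squares. The 95% counting intervals are drawn but mostly narrower than the points; meningeal fibroblast-like cells lie near 20% and erythroid-like cells under 5% in both libraries.

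The share was lower in the Gmnc-/- library, with the counting interval of the ratio wholly below 1, in 8 of the 12 classes. The lowest ratio was in choroid plexus-like cells, at 0.772 (0.767 to 0.777), and those of astroglia-like and intermediate progenitor-like cells were 0.850 (0.848 to 0.851) and 0.852 (0.850 to 0.855). In 3 classes the interval lay wholly above 1, with ratios of 1.03 in endothelial-like, 1.03 in erythroid-like and 1.01 in meningeal fibroblast-like cells, and in striatal-like cells it held 1. Which classes lay above 1 changed with the processing. Only erythroid-like cells did with doublets kept, and only endothelial-like cells under a stricter cell filter, where 10 classes had enough cells. As a mean over cells the share was lower in all 3. At clustering resolutions of 0.5 and 2, and with members in the clustering, all 3 stayed above 1. Giving the Gmnc-/- class shares the class makeup of the wild-type library left a ratio of 0.878, and giving the wild-type shares the Gmnc-/- makeup left 0.871. For this the unnamed clusters were pooled as a class, and the ependymal-like cluster, without Gmnc-/- cells, was left out. The Cajal-Retzius-like class entered with 1 Gmnc-/- cell. A lower share thus remained at equal makeup of these classes, while makeup inside a class was not held fixed.

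Single clusters spread the share further. Cluster 19, unnamed and led by Npy, Sst and Fxyd7, had 26.4% in the Gmnc-/- library and 30.4% in the wild-type library, in 352 and 340 cells with a median of 2544 and 2338 UMIs. Cluster 28, also unnamed, had 26.2% in 69 Gmnc-/- cells and 24.1% in 175 wild-type cells. Within the meningeal fibroblast-like class, cluster 31 had 24.1% in the Gmnc-/- library and 25.1% in the wild-type library. Cluster 18, unnamed with a mixed signal of intermediate progenitor and oligodendrocyte lineage markers, had 15.3% and 19.1% in the Gmnc-/- and wild-type libraries. At the other end, cluster 12 among the excitatory neuron-like cells had 6.66% in the Gmnc-/- library and 8.59% in the wild-type library. The ependymal-like cluster held 0 Gmnc-/- cells and 120 wild-type cells, and its wild-type share was 7.92%. The Cajal-Retzius-like cluster held 1 Gmnc-/- cell and 38 wild-type cells, too few to set side by side.

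The difference between the libraries depended on the depth of the cell. In cells of 1000 to 2000 UMIs the share was 7.62% in the Gmnc-/- library and 10.6% in the wild-type library. In cells of 2000 to 4000 UMIs the direction turned: 10.6% in the Gmnc-/- library against 7.86% in the wild-type library, a ratio of 1.35. In cells of 4000 to 8000 UMIs the shares were 11.2% in the Gmnc-/- library and 13% in the wild-type library, and in cells of 8000 to 16000 UMIs 11.5% and 13.7%. The turn at 2000 to 4000 UMIs was present in 6 of the 7 classes with 200 or more cells in each library, with ratios of 1.09 in astroglia-like, 1.27 in intermediate progenitor-like, 1.39 in interneuron-like, 1.42 in striatal-like, 1.52 in excitatory neuron-like and 1.66 in oligodendrocyte lineage-like cells. Erythroid-like cells of that depth had a ratio of 0.755. At greater depth some classes still differed from the sum of all cells. Oligodendrocyte lineage-like cells of 4000 to 8000 UMIs had 12.9% in the Gmnc-/- library and 11.4% in the wild-type library, a ratio of 1.14. Erythroid-like cells of 8000 to 16000 UMIs had 6.61% in 53 Gmnc-/- cells and 2.53% in 88 wild-type cells, a ratio of 2.62.

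Wild-type cells of 2000 to 4000 UMIs differed from deeper wild-type cells in more than this share. Their mitochondrially encoded share was 4.87%, against 3.05% in wild-type cells of 4000 to 8000 UMIs, while the Gmnc-/- values for those depths were 1.35% and 1.19%. Such a high value was not particular to the depth of the turn. Wild-type cells of 1000 to 2000 UMIs had 4.98%, and Gmnc-/- cells of that depth 1.76%. There the ribosomal protein share did not turn, with a ratio of 0.720. Counted per cell, 4.31% of the Gmnc-/- cells and 10.4% of the wild-type cells had more than 20% ribosomal protein UMIs. Cells with 5% to 10% had a median of 4633 UMIs in the Gmnc-/- library and 2852 in the wild-type library, and cells with 10% to 15% had 4792 and 7695. Malat1, a nuclear long noncoding RNA, made up a median of 2.08% of UMIs in the Gmnc-/- cells with a 5% to 10% ribosomal protein share and 2.57% in the wild-type cells, and 0.773% and 0.591% in cells with more than 20%. The part of depth, mitochondrial and nuclear RNA in the difference was not tested.

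**Figure D2:**
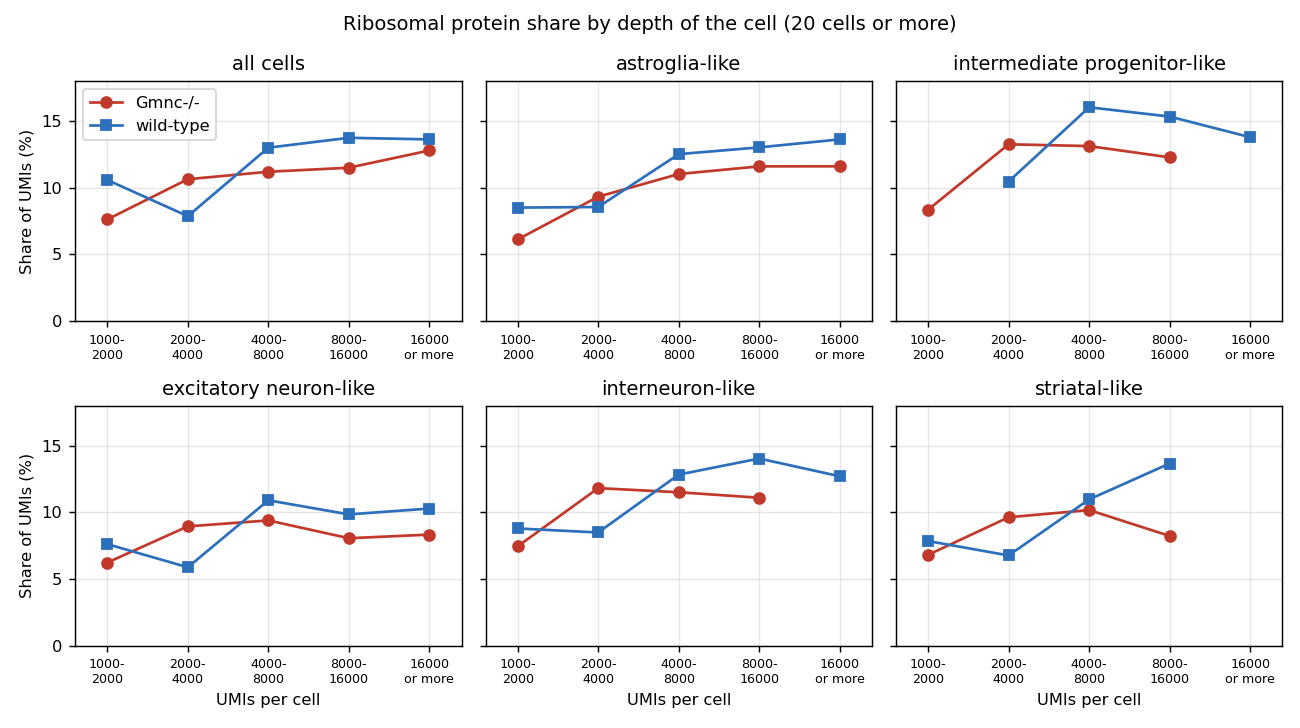
Ribosomal protein share of summed UMIs (%, y axis) by the UMI count of the cell (x axis, 5 ranges) for all cells and 5 classes, with the Gmnc-/- library as red circles and the wild-type library as blue squares; points of under 20 cells are left out. In each panel the Gmnc-/- point lies above the wild-type point at 2000 to 4000 UMIs, and below it at 4000 to 8000 and at 8000 to 16000 UMIs.

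Gene by gene, 83 of the 87 members reached a mean of 20 CPM over the libraries. The log2 ratio is that of Gmnc-/- over wild-type CPM after adding 5 CPM to each. Its median over the 83 was -0.25 (-0.26 to -0.24), against 0.13 over all 7770 genes past the same minimum. Of the 83, 66 were lower and 17 higher in the Gmnc-/- library, where 36.0% of all genes were lower and 64.0% higher. At least 1.5-fold lower were 10 members, against 5.52% of all genes, and at least 1.5-fold higher were 2 members, against 5.37%. Scaling by the median of ratios in place of total UMIs shifts every log2 ratio by -0.15, and 6 members then stay above 0: Rpl23a, Rps15, Rpl31, Rps14, Rpl13a and Rplp2. That scaling places the median gene near 0 by construction, so the 64.0% of all genes is no background for this count.

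Both subunits shared the difference. The 46 core large-subunit genes supplied 5.93% of UMIs in the Gmnc-/- library and 7.03% in the wild-type library, and the 31 core small-subunit genes 5.07% and 5.86%. The median log2 ratio was -0.25 for each subunit, with 39 of 46 and 24 of 31 genes lower in the Gmnc-/- library.

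Large-subunit genes took both extremes of the ratio. Rpl35, whose protein sits at the rim of the peptide exit tunnel, had 532 CPM in the Gmnc-/- library and 1103 CPM in the wild-type library, a log2 ratio of -1.05 and the lowest of all members. Rpl23a, whose protein lies beside it at the tunnel exit and contacts the signal recognition particle, had 938 CPM in the Gmnc-/- library and 540 CPM in the wild-type library, a log2 ratio of 0.79 and the highest. Thus these neighbours in the ribosome stood at opposite ends. Rpl31, also at the exit rim, had 904 CPM in the Gmnc-/- library and 702 CPM in the wild-type library, a log2 ratio of 0.36. Rpl9 had 713 CPM in the Gmnc-/- library and 1372 CPM in the wild-type library (log2 ratio -0.94). Rpl15 had 218 and 368 CPM in the Gmnc-/- and wild-type libraries (-0.74). Rpl13a, which in human monocytes also leaves the ribosome to silence inflammatory transcripts, had 1690 and 1518 CPM in the same order of libraries, a log2 ratio of 0.16 that turns to the other direction in choroid plexus-like cells (-0.09).

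The 3 stalk proteins, which recruit elongation factors to the large subunit, did not share a ratio. Rplp0, the base of the stalk, had 1058 CPM in the Gmnc-/- library and 1717 CPM in the wild-type library, a log2 ratio of -0.70. Its partners Rplp1 and Rplp2 had log2 ratios of -0.06 and 0.15. Rplp1 stood at 2134 CPM in the Gmnc-/- library and 2219 CPM in the wild-type library, and Rplp2 at 1593 CPM in the Gmnc-/- library and 1435 CPM in the wild-type library. The direction of Rplp1 over all cells was not that of most classes. It was higher in the Gmnc-/- library in 10 of the 12, from -0.09 in choroid plexus-like to 0.49 in endothelial-like cells.

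Of the small-subunit genes, Rps15, whose protein sits in the head and in human cells is needed for export of the maturing subunit from the nucleus, had 1992 CPM in the Gmnc-/- library and 1257 CPM in the wild-type library (log2 ratio 0.66). Rps14, a platform protein whose human gene is lost in the 5q- syndrome, had 2168 CPM in the Gmnc-/- library and 1927 CPM in the wild-type library (0.17). Rps12 had 2080 CPM in the Gmnc-/- library and 1916 CPM in the wild-type library (0.12), a direction that turns under median-of-ratios scaling. Rps2, with 1159 CPM in the Gmnc-/- library and 1784 CPM in the wild-type library (-0.62), was the lowest core small-subunit gene. Rps6, the target of the S6 kinases downstream of mTOR, had 597 CPM in the Gmnc-/- library and 770 CPM in the wild-type library (-0.37).

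**Figure D3:**
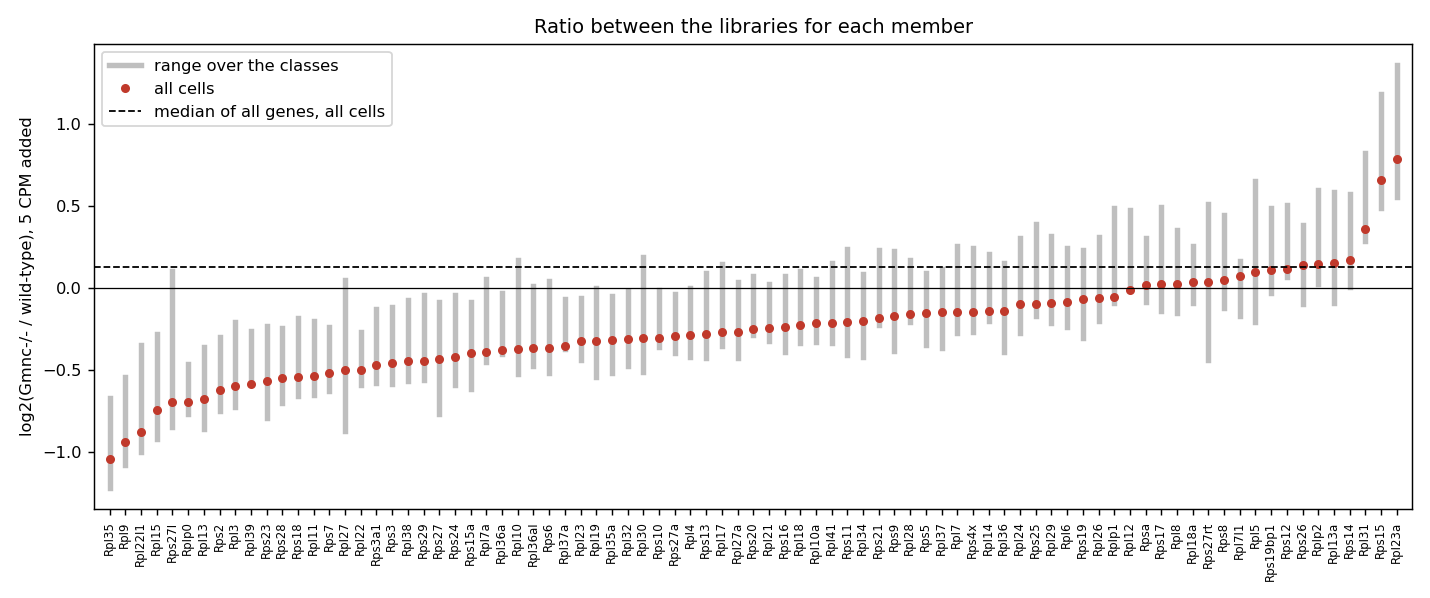
Log2 ratio of Gmnc-/- over wild-type CPM (5 CPM added to each, y axis), for the 83 members at 20 CPM or more (x axis, ordered by the ratio over all cells). Red points are all cells, grey bars run from the lowest to the highest of the classes in which the member passed the minimum, and the dashed line is the median of all genes (0.13); Rpl35 lies at -1.05 and Rpl23a at 0.79.

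Of 80 members past the minimum in all 12 classes, 37 kept their direction in every class and 43 did not. Lower in all 12 were 30 members in the Gmnc-/- library, as were 10.4% of the 1443 genes that passed everywhere. Higher in all 12 were 7 of the 80 (Rpl12, Rps12, Rps14, Rplp2, Rpl31, Rps15 and Rpl23a), a smaller share than the 27.7% of all such genes. In choroid plexus-like cells the log2 ratios of Rpl12, Rps14 and Rplp2 were only 0.002, 0.01 and 0.02. Rpl35 ranged from -1.22 in choroid plexus-like cells to -0.67 in macrophage-like cells, and Rpl9 from -1.08 in choroid plexus-like to -0.54 in meningeal fibroblast-like cells. Rpl23a ranged from 0.56 in choroid plexus-like to 1.36 in erythroid-like cells, and Rps15 from 0.49 in choroid plexus-like to 1.19 in endothelial-like cells. In astroglia-like cells Rpl23a had 919 CPM in the Gmnc-/- library against 580 CPM in the wild-type library, and in endothelial-like cells 998 CPM against 482 CPM. Rpl35 in the same classes had 501 CPM in Gmnc-/- and 1047 CPM in wild-type astroglia-like cells, and 796 CPM in Gmnc-/- and 1359 CPM in wild-type endothelial-like cells. All classes come from the same pair of libraries, so they are not separate observations of the genotypes.

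Over the classes, a member's log2 ratio spanned a median of 0.50, against 0.88 for all genes that passed in all 12. The median member ratio itself moved between classes, from -0.38 in choroid plexus-like to 0.04 in erythroid-like cells. It was -0.25 in astroglia-like and in intermediate progenitor-like cells, -0.19 in interneuron-like, -0.16 in excitatory neuron-like and -0.02 in striatal-like cells. The median of all genes was above the member median in each of the 12 classes, from 0.07 against 0.02 in endothelial-like cells to 0.63 against 0.04 in erythroid-like cells. In choroid plexus-like cells 20 members were at least 1.5-fold lower (8.43% of all genes there), and in endothelial-like cells 3 were (3.13% of all genes).

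Taken as a part of the ribosomal protein UMIs, which removes the difference in the total, 30 of the 80 members had a smaller part and 24 a larger part in the Gmnc-/- library in all 12 classes. Parts of a total cannot all move the same way, and no share of all genes exists on this scale. These counts therefore have no background beside them. Rps15 made up 1.80% of the ribosomal protein UMIs in the Gmnc-/- library and 0.966% in the wild-type library, Rpl23a 0.845% and 0.415%, and Rpl35 0.479% and 0.847%. Across the 80 members, the log2 parts of the same class in the 2 libraries correlated at r = 0.932 to 0.941 over the 7 classes of 200 or more cells in each library. Pairs of different classes within the Gmnc-/- library correlated at 0.957 to 0.994, and pairs within the wild-type library at 0.931 to 0.991. The root mean square difference of the log2 parts was 0.298 to 0.360 between the libraries, against a median of 0.183 between classes within the Gmnc-/- library and 0.186 within the wild-type library. The composition thus differed more between the libraries than between most classes. These correlations are across genes and describe these 2 libraries.

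Near-identical copies limit single members. The 16 -ps rows took 18019 UMIs in the Gmnc-/- library and 10794 in the wild-type library, or 179 and 137 CPM. Rpl23a-ps3 had 28.7 CPM in the Gmnc-/- library and 18.3 CPM in the wild-type library, in the direction of Rpl23a itself, and Rpl27-ps3 had 10.8 and 20.3 CPM, in the direction of Rpl27 (212 CPM in the Gmnc-/- library and 302 CPM in the wild-type library). Other rows did not follow their gene. Rpl9-ps6 had 12.2 CPM in the Gmnc-/- library and 12.98 CPM in the wild-type library, a log2 ratio of -0.06 where that of Rpl9 was -0.94, and Rpl13-ps3 had 4.87 and 4.72 CPM, while Rpl13 itself was lower in the Gmnc-/- library. How the counting split reads between such copies is not given in the sources used here, so the level of a single member is uncertain.

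Some members took a class-specific part of the ribosomal protein UMIs in both libraries. Rpl41, the shortest ribosomal protein, made up 5.50% of them in Gmnc-/- and 5.91% in wild-type erythroid-like cells, against 2.32% and 2.25% in Gmnc-/- and wild-type striatal-like cells. Rps2, near the entry of the messenger RNA channel, was also highest in erythroid-like cells, at 1.71% in the Gmnc-/- library and 2.36% in the wild-type library, and lowest in interneuron-like cells, at 0.886% and 1.16%. Rplp0 reached 1.30% in Gmnc-/- and 1.87% in wild-type erythroid-like cells, and Rplp1 2.32% and 2.26% in the same cells, each the highest of the 7 classes. Rpl3, Rpl5, Rpl15 and Rpl36al had their lowest part in erythroid-like cells in both libraries. Rpl5, which with Rpl11 and the 5S RNA binds Mdm2, had 0.634% in Gmnc-/- and 0.410% in wild-type erythroid-like cells, against 0.890% and 0.743% in the oligodendrocyte lineage-like cells of those libraries.

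The paralogues were the other class-specific members. Rpl22l1, the paralogue of Rpl22, was highest in astroglia-like cells among the 7 classes with 200 or more cells, at 0.353% of the ribosomal protein UMIs in the Gmnc-/- library and 0.50% in the wild-type library, and lowest in striatal-like cells, at 0.139% and 0.219%. In the smaller class of meningeal fibroblast-like cells its part was larger still, at 0.499% in the Gmnc-/- library and 0.705% in the wild-type library, and it reached 993 CPM in the Gmnc-/- library and 1393 CPM in the wild-type library, against 263 and 488 CPM over all cells of those libraries. Rps27l, a paralogue of Rps27 and a p53 target gene, had 0.182% in Gmnc-/- and 0.233% in wild-type astroglia-like cells, and 0.083% and 0.096% in Gmnc-/- and wild-type striatal-like cells. Rpl36al, the paralogue of the X-linked Rpl36a, had 286 CPM in the Gmnc-/- library and 370 CPM in the wild-type library. Outside the 10 most variable members, Rpl13 had its largest part in oligodendrocyte lineage-like cells, at 2.03% in the Gmnc-/- library and 2.57% in the wild-type library.

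**Figure D4:**
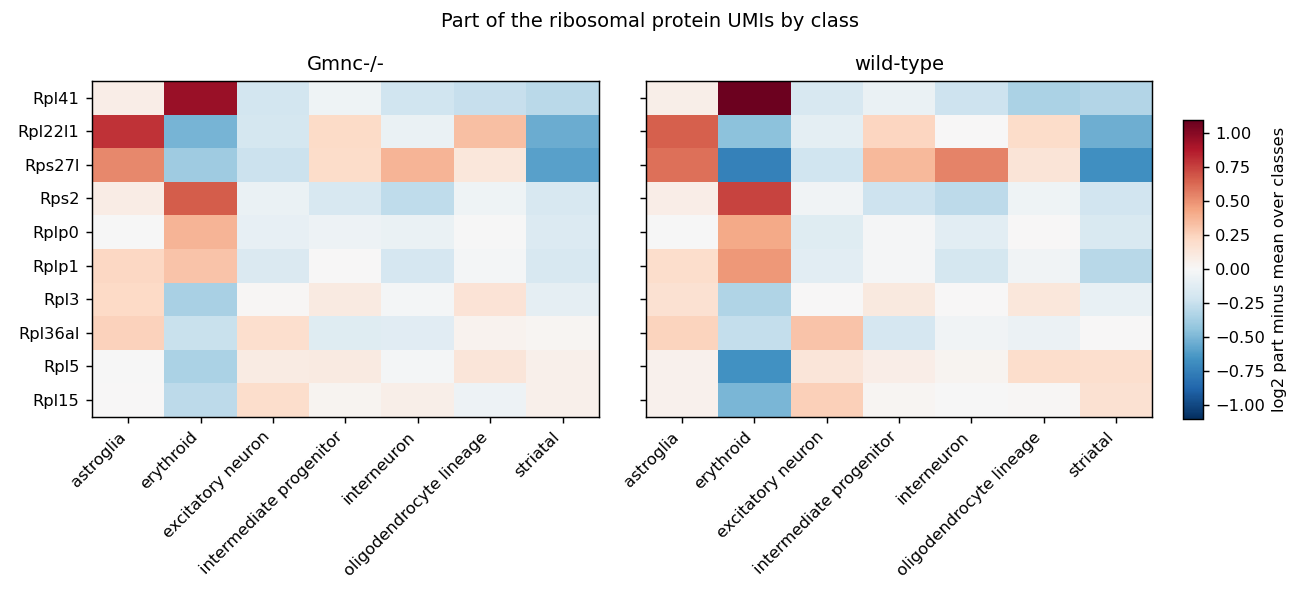
Part of the ribosomal protein UMIs for the 10 members that vary most across classes (rows), in the 7 classes with 200 or more cells in each library (columns), with the Gmnc-/- library left and the wild-type library right. Colour is the log2 part minus its mean over the classes of that library; Rpl41 and Rps2 stand out in erythroid-like cells and Rpl22l1 in astroglia-like cells in both panels.

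The remaining paralogues and Rps19bp1 were low. Rpl7l1 had 71.7 CPM in the Gmnc-/- library and 67.9 CPM in the wild-type library, Rps19bp1 69.9 and 64.3 CPM, and Rps27rt 25.9 and 25.1 CPM. Rpl6l, under the minimum, had 14.3 CPM in the Gmnc-/- library and 15.3 CPM in the wild-type library. The testis paralogue Rpl39l gave 40 UMIs in each library, and Rpl3l, the striated muscle paralogue of Rpl3, 11 UMIs in the Gmnc-/- library and 10 in the wild-type library. Rpl10l, the testis copy of Rpl10, gave 0 UMIs in both, which allows up to 0.0298 CPM in the Gmnc-/- library and 0.0379 CPM in the wild-type library, where a count of 0 allows 3 counts.

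Other genes of the translation machinery divided by kind. Of 16 elongation factors and other TOP transcripts, 13 were lower in the Gmnc-/- library, where 36.0% of all genes were, with a median log2 ratio of -0.18. Eef1a1, which brings aminoacyl-tRNA to the ribosome, had 2194 CPM in the Gmnc-/- library and 2898 CPM in the wild-type library (-0.40), while Eef2, the translocase, had 591 and 420 CPM in the Gmnc-/- and wild-type libraries (0.49). Btf3, part of the nascent chain-associated complex, had 251 CPM in the Gmnc-/- library and 564 CPM in the wild-type library (-1.15). Among ribosomal proteins with other names, Fau had a log2 ratio of -0.17 and Gnb2l1 (the scaffold Rack1) one of 0.18. Mitochondrial ribosomal proteins were lower for 60 of 69 genes past the minimum (median -0.22), and nuclear-encoded oxidative phosphorylation genes for 27 of 27 (median -0.37).

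Genes that build or regulate ribosomes lay near the median of all genes. Of 19 ribosome biogenesis genes past the minimum, 12 were higher in the Gmnc-/- library, close to the 64.0% of all genes, with a median log2 ratio of 0.12. Ncl, the nucleolar protein nucleolin, had 649 CPM in the Gmnc-/- library and 473 CPM in the wild-type library (0.45), and Ubtf, a factor of RNA polymerase I, 141 and 88.6 CPM (0.64). Of 12 mTOR pathway genes and regulators of TOP translation past the minimum, 10 were higher (median 0.20), among them Larp1, which binds the TOP tract, with 107 CPM in the Gmnc-/- library and 92.7 CPM in the wild-type library (0.20). Of the 7 listed snoRNA host transcripts, 3 were found by symbol and all 3 passed the minimum (median -0.19). The other 4 were not analysed here.

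Gene span went with the ratio across all genes. The 692 other genes with spans of 204 to 5422 bases had a median log2 ratio of -0.27 over all cells, and the 71 members of that range -0.24. Other genes of 5422 to 10622 bases had -0.14 and the 8 members of that range -0.36. The 1552 longest genes, over 105653 bases, had 0.26. Over all cells the median member thus lay close to that of other genes in the shortest range. In that range the members had -0.22 and other genes -0.24 in astroglia-like cells. The values were further apart in erythroid-like cells, at 0.05 and 0.30, and in striatal-like cells, at 0.005 and -0.13. The part of span in the difference was not tested.

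**Figure D5:**
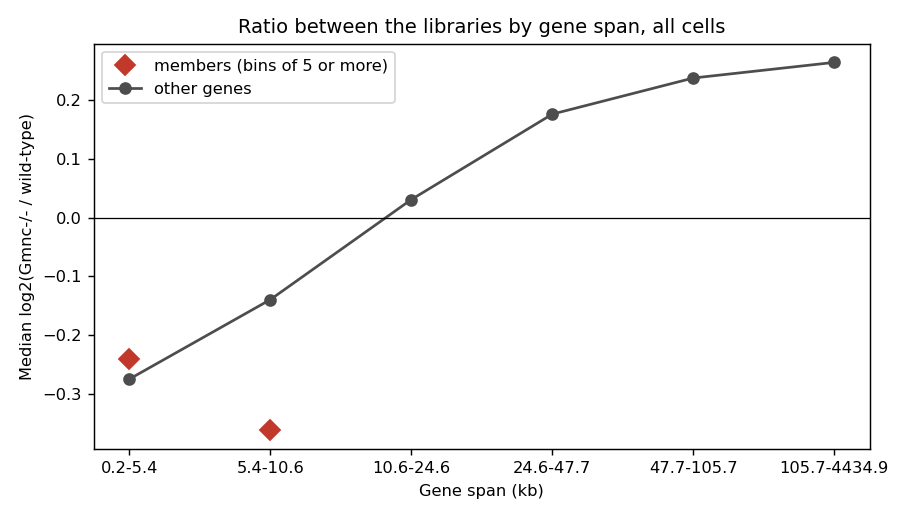
Median log2 ratio, Gmnc-/- over wild-type over all cells (y axis), by gene span (x axis, kb, 6 ranges), for other genes (grey line) and for the members (red diamonds, ranges with 5 or more members). Other genes go from -0.27 in the shortest range to 0.26 in the longest, and the members lie at -0.24 and -0.36 in the 2 shortest.

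Across the 24 sums of 12 classes and 2 libraries, the genes whose log2 CPM was most like that of the summed members were Eef1b2 (r = 0.962), Eef1a1 (0.942), Fau (0.933), Tpt1 (0.930) and Cox4i1 (0.930), of 230 genes at 50 CPM or more in each sum. The sums share libraries and the total by which they are divided. Single members followed the remaining members with a median r of 0.957. Rpl23a (0.561) and Rps15 (0.709) were the least alike, and Rpl17 (0.994) the most.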

How the data were processed

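Both libraries were made with 10x Genomics 3′ chemistry version 3.1, per the labels, and the submitters' processing notes name Cell Ranger 7.1.0 and mm10. The deposited matrices hold UMI counts per gene and barcode; further steps of the authors' processing, such as filters, are not stated. The 28001 features include 3 that are no gene, left out of totals.

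Barcodes with 1000 UMIs or more and under 10% mitochondrial counts were kept, and Scrublet doublets (scanpy 1.11.5, 0.8% expected per 1000 barcodes) were removed. Free RNA was not subtracted. Cells of both libraries were clustered together (2000 variable genes without members and Gmnc programme genes, 30 components, 15 neighbours, leidenalg 0.10.2 at resolution 1). Of 34 clusters, 6 stayed unnamed. A name needed a marker score of 0.8, 3 detected markers, and no other list with more of the 10 leading genes. Rebuilt names may differ from the study's. The interneuron-like, astroglia-like and intermediate progenitor-like classes each include a cycling cluster. Mki67, a marker of cycling cells, had 1113, 1046 and 1020 CPM in these clusters in the Gmnc-/- library. In the wild-type library it had 587, 540 and 538 CPM in the same order.

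Counts were summed per class and library and divided by total UMIs to give CPM, which is not divided by gene length. Kept UMIs were 100656190 in the Gmnc-/- library and 79073465 in the wild-type library. Intervals at 95% are exact (Clopper-Pearson for shares, conditional for ratios) and cover counting error only. Coordinates are GENCODE M21 (GRCm38), sequences RefSeq. Named were the 5 highest and 5 lowest members, those extreme in 3 or more classes of 200 cells, the 10 most class-variable, the low members, the paralogues and the lists. Members and lists were chosen with earlier results of these data known; Rpl13, Rps6, Rpl27 and the named clusters were chosen after their values were seen. On simulated sums of 7707 genes with counting error alone, all 200 genes changed by 1.5-, 2- or 4-fold had the right direction. The intervals held the true ratio for 67 of 71, 63 of 66 and 59 of 63 of them at these folds. Variation between libraries was not simulated, so this checks the computation only. A gene of the compared lists is not reported here.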

Additional observations from a re-analysis of the deposited data

Results flagged for a closer look

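The ribosomal protein share was higher in the Gmnc-/- library in 3 classes while it was lower in 8 others. The ratio, Gmnc-/- over wild-type, was 1.03 in endothelial-like cells, 1.03 in erythroid-like cells and 1.01 in meningeal fibroblast-like cells. Erythroid-like cells of 1000 to 2000, 2000 to 4000 and 4000 to 8000 UMIs had ratios of 0.784, 0.755 and 0.913. The ratio was 2.62 in the 53 Gmnc-/- and 88 wild-type erythroid-like cells of 8000 to 16000 UMIs. The 3 classes did not stay above 1 under every processing. With doublets kept only erythroid-like cells did. Under the stricter filter, where 10 classes had enough cells, only endothelial-like cells did. As a mean over cells all 3 were below 1. At resolution 0.5, at resolution 2 and with members in the clustering all 3 stayed above 1. The difference between these classes and the others was not tested, since each class gives 1 sum per library.

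Outside the members, the -ps rows summed to 179 CPM in the Gmnc-/- library and 137 CPM in the wild-type library, the opposite direction to the summed members. This rests on the 3 rows with the most counts, Rps12-ps3 (77.7 CPM in the Gmnc-/- library and 46.5 CPM in the wild-type library), Rpl23a-ps3 (28.7 and 18.3 CPM) and Rps26-ps1 (26.2 and 17.2 CPM). The other 13 rows, a split made after seeing the values, summed to 46.5 CPM in the Gmnc-/- library and 54.5 CPM in the wild-type library, the direction of the summed members.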

How the results depend on the processing

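The share ratio over all cells (0.852) was 0.848 under the stricter filter, 0.835 with doublets kept, 0.876 and 0.823 in female-pattern and male-pattern cells, 0.861 in cells of 4000 to 8000 UMIs, 0.836 without mitochondrially encoded genes and 0.885 as a mean over cells. Chosen after seeing the data, cells of 2000 to 4000 UMIs gave 1.35, cells of 8000 to 16000 UMIs 0.837, and cells outside unnamed clusters 0.867. The median member log2 ratio (-0.25) was -0.27 with doublets kept, -0.22 and -0.29 in female-pattern and male-pattern cells, -0.24 at 4000 to 8000 UMIs, -0.28 without mitochondrially encoded genes, -0.40 with median-of-ratios scaling and -0.24 without the filter on low values. Median-of-ratios scaling gave 21 members at least 1.5-fold lower and 1 higher, and male-pattern cells 13 lower and 1 higher. The share of all genes past 1.5-fold was not counted under these settings, so these counts have no background beside them. A lower share in the Gmnc-/- library, seen in 8 of 12 classes, was seen in 5 of 9 at resolution 0.5, 8 of 12 at resolution 2, 7 of 12 with members in the clustering, 11 of 13 under the looser filter, 9 of 10 under the stricter one, 11 of 12 with doublets kept, 8 of 11 in female-pattern and 6 of 6 in male-pattern cells, 6 of 7 at 4000 to 8000 UMIs, 10 of 12 without mitochondrially encoded genes and 9 of 12 as a mean over cells. The classes above 1 differed between these settings, and as a mean over cells they were macrophage-like, oligodendrocyte lineage-like and striatal-like cells.

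The astroglia-like over excitatory neuron-like ratio, Gmnc-/- then wild-type, was 1.32 and 1.47 under the looser filter, 1.24 and 1.23 under the stricter one, 1.14 and 1.21 with doublets kept, 1.28 and 1.36 in female-pattern cells, 1.22 and 1.35 in male-pattern cells, 1.17 and 1.15 at 4000 to 8000 UMIs, 1.23 and 1.44 as a mean over cells, 1.18 and 1.23 at resolution 0.5, 1.19 and 1.25 at resolution 2, and 1.23 and 1.31 with members in the clustering. Without mitochondrially encoded genes it was 1.32 in the wild-type library. Which library had the higher ratio thus turned under the stricter filter and at 4000 to 8000 UMIs; the cause was not tested.

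No paired analysis was possible because there is 1 library per genotype. Of the members, depth limits Rpl10l, Rpl3l and Rpl39l most.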
